A study of Mus musculus with 6 samples.

Results

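DNA replication needs a helicase to open the double helix, polymerases to copy the strands and a supply of deoxynucleotides, and the genes for this machinery were followed here in the lungs of young mice in which human SRY was switched on. The set held 52 gene symbols, and its members were the rows of the deposited lung table whose symbol equalled one of them, with every probe kept. There were 50 symbols with a row, on 80 probes, out of 18138 symbols and 25697 probes on the array. Gins1 and Gins2 had no row of that symbol. Lung RNA came from 3 hSRY-OFF and 3 hSRY-ON mice, all male, 6 days old and of the strain labelled FVB (FVB/N in the study's methods), with 1 array of the Illumina MouseRef-8 BeadChip for each mouse. In hSRY-ON mice a single copy of the Signalox-hSRY transgene, placed at the H11 locus, had lost its DsRed2 segment, so that the CAG promoter, which is active in nearly all cell types, drove FLAG-tagged human SRY together with EGFP. The recombination was made by Cre protein that the egg received from a Ddx4-Cre mother, and the hSRY-ON mice chosen for the arrays did not carry Ddx4-Cre themselves. hSRY-OFF is the study's name for mice with the transgene not recombined, but the study also uses littermates without the transgene as controls, so the genotype of the hSRY-OFF mice rests on their label. All hSRY-ON mice came from 1 integration line, and these pups are small, take little milk and die young, so activation of the transgene and the state of the pups cannot be told apart in these arrays.

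In a dividing cell, the origin recognition complex, Cdc6 and Cdt1 place a ring of Mcm2 to Mcm7 on DNA during G1, and in S phase Cdc7 with Dbf4, Cdc45 and the GINS complex turn the ring into a running helicase. Polymerase alpha with its primase starts each strand, polymerases epsilon and delta extend it, PCNA holds them on DNA, and Fen1 and Lig1 join the lagging strand fragments. Transcription of most of these genes rises as cells pass from G1 to S phase. The retinoblastoma proteins are then inactivated, in part by cyclin E with Cdk2. They no longer hold back E2F factors, which bind near the gene starts. In the mouse lung the first postnatal week is a time of rapid cell division, when the alveoli begin to form.

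The replication genes were lower in hSRY-ON lungs as a group. Of the 80 member probes, 55 probes for 43 genes were detected, with a detection p under 0.05, on 3 or more of the 6 arrays and were tested. A total of 35 probes were called lower in hSRY-ON by limma's two-sided test (adjusted p under 0.05 by Benjamini-Hochberg over all tested probes), which was 63.6% of those tested, where 13.3% of all 13841 tested probes were called lower. No member was called higher, where 13.6% of all tested probes were, and 0 member probes had an unadjusted p under 0.05 with a higher value. The fitted change was negative for 54 probes and positive for 1, that of Rpa3. The median change, hSRY-ON minus hSRY-OFF on the log2 scale, was -0.88, a level 1.84-fold lower, with quartiles of -1.23 and -0.50. It was -0.85 with the 2 called probes that were undetected in hSRY-ON set at their bounds. Over all tested probes the median was -0.03, with quartiles of -0.35 and 0.29. A probe that passed the filter only through the hSRY-OFF arrays had to differ, so the 44 member probes detected on all 6 arrays were also counted, and 27 of these (61.4%) were called lower with a median change of -0.86. Of all 11783 probes detected on all 6 arrays, 12.8% were called lower, with a median change of -0.03. Over all 80 probes without a filter the median was -0.62. In whole lung RNA, fewer cells of a type and less RNA per cell cannot be told apart.

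By gene, 24 of the 43 tested genes had every tested probe called lower, 4 (Lig1, Ung, Msh6 and Brca2) had some, and 15 had none. All hSRY-ON arrays were below all hSRY-OFF arrays in 42 member probes (76.4%), where this held for 24.1% of all tested probes, and all 35 called probes were among them. A fall of at least 2-fold was called for 20 member probes, a class that held 4.19% of all tested probes. The count of 35 was 17 without hSRY-OFF replicate 1 and 22 without hSRY-OFF replicate 3, when 705 and 1046 of all tested probes were called lower.

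**Figure D1:**
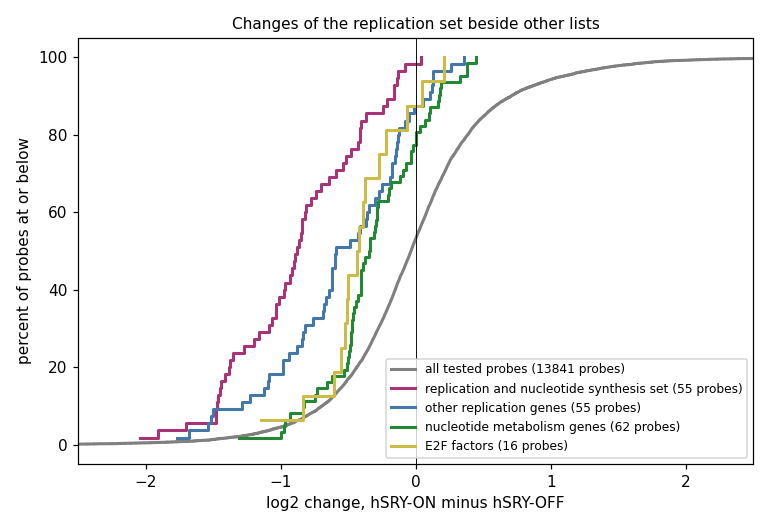
Cumulative share of probes (vertical axis, percent) at or below each log2 change, hSRY-ON minus hSRY-OFF (horizontal axis), for the 55 replication and nucleotide synthesis probes, 3 related lists and all 13841 tested probes. The curve of the replication set lies to the left of the curve of all tested probes, with a median of -0.88 against -0.03.

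Because many of these genes moved together, the sequence around their starts was read from a RefSeq table of the mouse build GRCm38.p6, which gives 250 bases before and 50 bases after each start. It held a window for 44 of the 52 members, and Mcm4, Gmnn, Gins1, Gins2, Prim2, Pole, Rfc2 and Ccne2 had none. The E2F motif was searched on both strands as TTTCCCGC, TTTGGCGC, TTTCGCGC and TTTGCCGC. At least 1 of these forms was found in 16 of the 44 members (36.4%) and in 2.6% of all 27025 genes of the table. It was found in 4.4% of the 6551 genes of the table whose symbol equalled that of a tested probe. These are called genes with a tested probe below, and tested genes under another symbol are not among them. Of all 32851 windows, 2.3% held one. Among members, 12 of the 25 genes with a probe called lower held a form, as did 1 of the 13 genes with no call (Cdc6) and 3 of the 6 genes with no tested probe (Mcm8, Pola1 and Pole2). Counting only the 250 bases before the start, 9 of 44 members (20.5%) and 2.2% of all genes held one. The median GC content of a window was 62.7% for members, 60.7% for genes with a tested probe and 52.7% for all windows. A match is a run of letters and not evidence that a factor binds there, and these counts were made after the set had been chosen.

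The helicase genes Mcm3, Mcm5, Mcm6 and Mcm7 all held the motif, and the stretches of 30 bases around their matches are shown on the gene's strand, 5′ to 3′, with the matched letters in capitals. Mcm2 and Mcm10, also called lower, had a window that held none of the forms. In Mcm5 and in the first Mcm6 stretch 2 forms on opposite strands overlap to make 1 longer run.
Mcm3, chr1:20820275-20820304, minus strand, 19 bases after the start: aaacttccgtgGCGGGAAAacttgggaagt
Mcm3, chr1:20820263-20820292, minus strand, 38 bases after the start: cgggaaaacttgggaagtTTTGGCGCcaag
Mcm5, chr8:75109347-75109376, plus strand, 153 bases before the start: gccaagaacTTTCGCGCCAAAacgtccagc
Mcm6, chr1:128359795-128359824, minus strand, 110 bases before the start: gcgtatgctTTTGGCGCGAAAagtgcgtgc
Mcm6, chr1:128359734-128359763, minus strand, 47 bases before the start: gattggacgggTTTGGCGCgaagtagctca
Mcm7, chr5:138172030-138172059, minus strand, 165 bases before the start: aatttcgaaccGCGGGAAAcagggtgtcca
Mcm7, chr5:138171849-138171878, minus strand, 16 bases after the start: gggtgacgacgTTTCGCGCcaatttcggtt

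The other genes with a probe called lower and a match belong to licensing, synthesis, joining, methylation and repair, and 1 stretch is shown for each. Those of Lig1, Uhrf1 and Dnmt1 come from a further start that the table gives for the gene. Cdc6 is shown last as the member that held a form and had no probe called.
Cdt1, chr8:122568035-122568064, plus strand, 32 bases after the start: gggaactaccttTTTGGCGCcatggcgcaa
Pold1, chr7:44548766-44548795, minus strand, 39 bases after the start: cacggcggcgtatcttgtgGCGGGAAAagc
Rfc3, chr5:151651195-151651224, minus strand, 10 bases before the start: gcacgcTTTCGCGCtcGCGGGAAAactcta
Lig1, chr7:13278841-13278870, plus strand, 26 bases after the start: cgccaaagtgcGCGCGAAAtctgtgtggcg
Uhrf1, chr17:56304117-56304146, plus strand, 185 bases before the start: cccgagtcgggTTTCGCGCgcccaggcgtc
Dnmt1, chr9:20952824-20952853, minus strand, 219 bases before the start: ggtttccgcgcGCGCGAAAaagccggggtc
Msh6, chr17:87975054-87975083, plus strand, 15 bases after the start: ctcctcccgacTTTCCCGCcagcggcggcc
Brca2, chr5:150522442-150522471, plus strand, 168 bases before the start: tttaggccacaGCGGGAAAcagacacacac
Cdc6, chr11:98908002-98908031, plus strand, 138 bases before the start: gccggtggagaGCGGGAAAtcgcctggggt

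As picked examples, the 250 bases before the starts of Mcm5, Mcm6 and Rpa3 are given in full, again with E2F letters in capitals. Other genes called lower, among them Mcm2, Rrm2, Tyms and E2f1, held none of the searched forms. Rpa3, a subunit of the single-strand DNA binding complex, is the member with the one positive change and none of the searched E2F forms.
Mcm5, chr8:75109259-75109508, plus strand: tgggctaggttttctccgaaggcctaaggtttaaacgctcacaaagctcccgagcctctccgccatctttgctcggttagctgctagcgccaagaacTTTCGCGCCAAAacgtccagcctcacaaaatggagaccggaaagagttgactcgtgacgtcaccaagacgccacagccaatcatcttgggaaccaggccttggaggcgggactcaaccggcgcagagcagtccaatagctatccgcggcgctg
Mcm6, chr1:128359706-128359955, minus strand: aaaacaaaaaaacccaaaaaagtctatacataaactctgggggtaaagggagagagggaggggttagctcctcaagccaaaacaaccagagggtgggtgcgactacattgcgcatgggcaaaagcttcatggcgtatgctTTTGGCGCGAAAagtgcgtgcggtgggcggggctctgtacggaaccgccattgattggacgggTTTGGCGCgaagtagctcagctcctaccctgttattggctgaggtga
Rpa3, chr6:8259142-8259391, minus strand: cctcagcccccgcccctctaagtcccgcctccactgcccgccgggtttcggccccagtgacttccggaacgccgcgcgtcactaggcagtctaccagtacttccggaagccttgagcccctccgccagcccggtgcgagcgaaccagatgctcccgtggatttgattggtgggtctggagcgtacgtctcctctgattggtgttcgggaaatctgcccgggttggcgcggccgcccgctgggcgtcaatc
Motifs that bind other regulators of cell cycle genes were searched in the same way. Among the members' windows, 1 such match overlapped an E2F form, a CCAAT whose first base is the last base of the second Mcm7 match printed above. CCAAT, the letters bound by NF-Y, was in the windows of 25 of 44 members (56.8%) and of 42.6% of genes with a tested probe. TTTGAA, the core of the CHR element, was in 7 of 44 members (15.9%) and in 14.1% of genes with a tested probe.

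**Figure D2:**
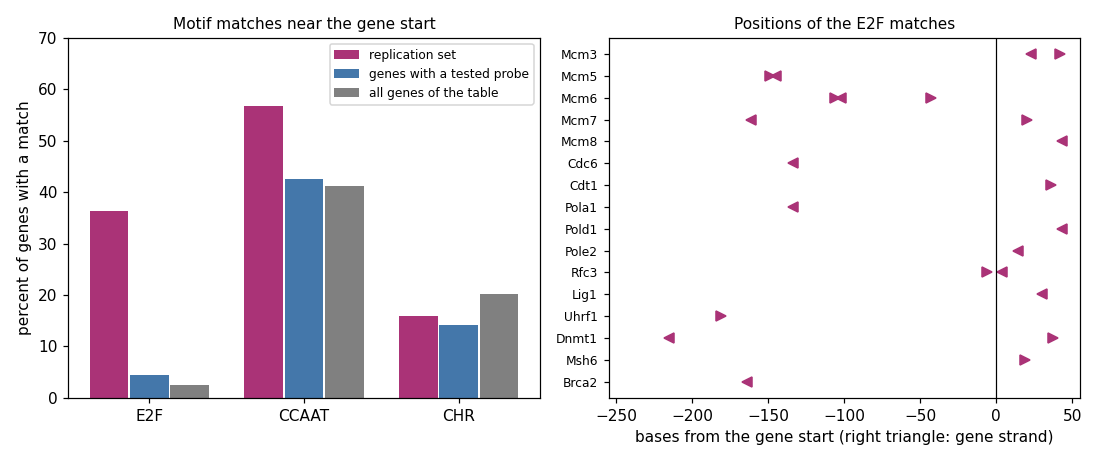
Left, share of genes (vertical axis, percent) with a match to the E2F, CCAAT or CHR motif in a window around the gene start. Bars are for the 44 members with a window, the 6551 genes whose symbol equalled that of a tested probe and all 27025 genes. Right, distance of each E2F match in a member from the gene start in bases, with the triangle pointing right for the gene's strand and left for the other. The bars for E2F stand at 36.4%, 4.4% and 2.6%.

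The helicase genes fell together. All 10 tested MCM probes were called lower, for all 7 genes with a tested probe, with changes of -1.70 to -0.92 and a median of -1.38. Values below are normalized log2 intensities, given for replicates 1, 2 and 3 of each group in turn, and changes are differences of group means with their standard error (SE). Mcm2 was at 10.38, 10.06 and 10.12 in hSRY-OFF and at 8.35, 8.69 and 9.30 in hSRY-ON, a change of -1.41 (SE 0.24, limma adjusted p = 0.00801). Mcm3 was at 9.50, 9.37 and 9.18 against 7.34, 7.44 and 8.19, a change of -1.70 (SE 0.24, adjusted p = 0.00398). The highest hSRY-ON value of both genes was that of replicate 3, and neither gene's groups overlapped. Mcm4 was at 12.23, 11.90 and 12.03 against 10.75, 10.99 and 11.37, a change of -1.02 (adjusted p = 0.00929). A second Mcm4 probe was not detected on any hSRY-ON array and was at least 1.53-fold lower there (adjusted p = 0.00927).

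Mcm5 was at 11.41, 11.05 and 11.24 in hSRY-OFF and at 9.45, 9.46 and 10.37 in hSRY-ON, a change of -1.48 (SE 0.26, adjusted p = 0.00865). Mcm6, whose promoter held both stretches printed above, was at 10.69, 10.26 and 10.58 against 8.79, 8.86 and 9.55, a change of -1.44 (adjusted p = 0.0062), and its second probe changed by -1.47. The 6 members of the ring therefore fell by between 2.02-fold and 3.25-fold on their brightest probes. Mcm7 was at 8.12, 7.80 and 7.89 against 6.57, 6.87 and 7.27, a change of -1.03 (adjusted p = 0.011). Mcm10, which helps to start the loaded helicase, fell on both probes, by -1.20 and -1.35. Its dimmer probe was at 7.58, 7.32 and 7.20 against 5.18, 6.24 and 6.63, was detected on 2 hSRY-ON arrays and had the largest adjusted p of the helicase group, 0.0304, and its change was -0.56 without background correction. That call was lost without any 1 of 4 arrays, with an adjusted p of 0.103, 0.0872 and 0.069 when hSRY-OFF replicate 1, 2 or 3 was left out and 0.0619 when hSRY-ON replicate 2 was. The calls of Mcm2 to Mcm7 on their brightest probes held with any 1 array left out. Mcm8, which works in recombination rather than in the ring, was not detected on any array.

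**Figure D3:**
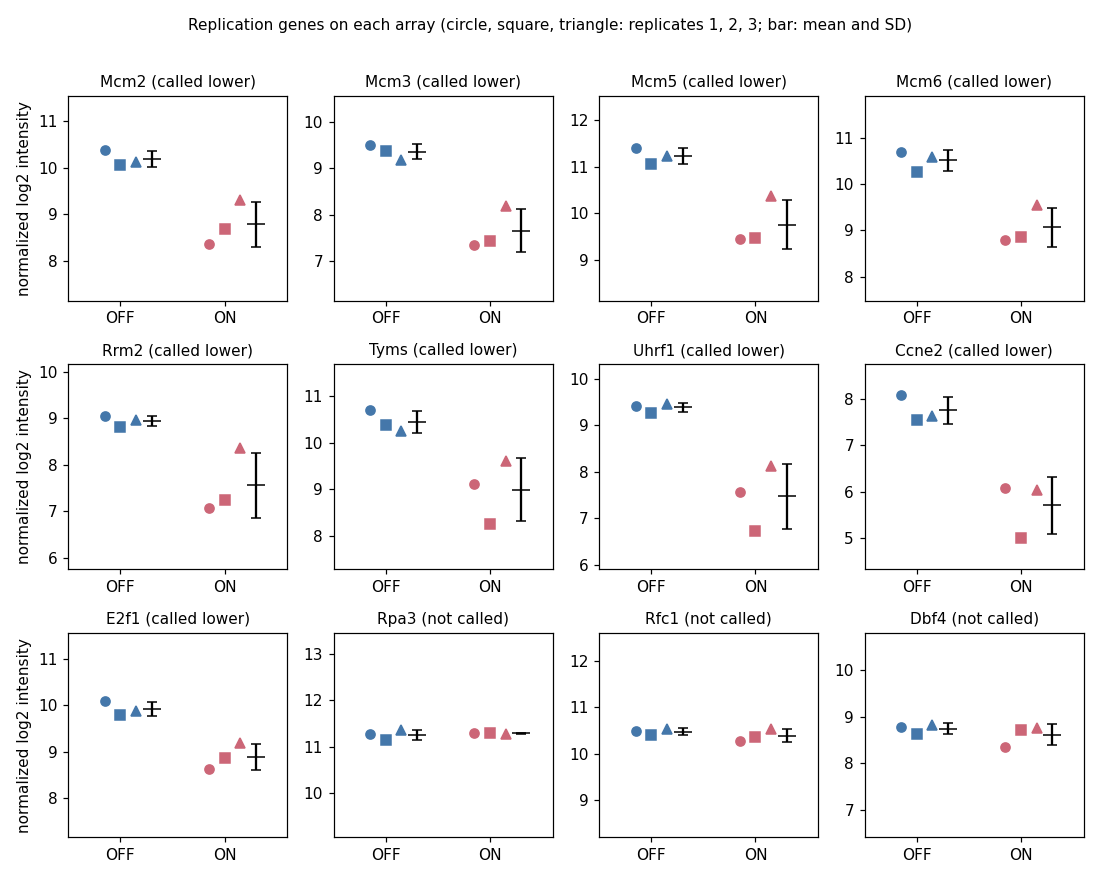
Normalized log2 intensity (vertical axis) of 12 members on each array, with hSRY-OFF in blue and hSRY-ON in red, circles, squares and triangles for replicates 1, 2 and 3, and the group mean and SD as bars. The groups do not overlap for the 9 genes called lower, for example Mcm3 at 9.18 to 9.50 against 7.34 to 8.19, and overlap for Rpa3, Rfc1 and Dbf4.

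Of the genes that license and fire origins, 3 of 5 tested were called lower. Cdt1, which brings the MCM ring to origins, was at 9.30, 9.16 and 9.23 in hSRY-OFF and at 8.22, 8.37 and 8.66 in hSRY-ON, a change of -0.81 (SE 0.14, adjusted p = 0.00865). Cdc45, named Cdc45l on the array, a part of the running helicase, changed by -1.07 (adjusted p = 0.0127). Cdc7, the kinase that fires origins, changed by -0.88 (adjusted p = 0.0111). Its activating subunit Dbf4 was not called, at 8.79, 8.63 and 8.83 against 8.36, 8.73 and 8.76, a change of -0.13 (adjusted p = 0.539), and its groups overlapped. Whether the changes of Cdc7 and Dbf4 differ was not tested. Cdc6, which loads the ring with Cdt1, changed by -0.78 with overlapping groups and was not called (adjusted p = 0.0739), with detection on 1 hSRY-ON array. Gmnn, the inhibitor of Cdt1, was not detected on any array.

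The catalytic subunits of polymerases delta and epsilon fell. Pold1, of polymerase delta, was at 9.87, 9.81 and 9.83 in hSRY-OFF and at 8.68, 8.46 and 9.11 in hSRY-ON, a change of -1.09 (SE 0.18, adjusted p = 0.00653). Pole, of polymerase epsilon, changed by -1.46 (adjusted p = 0.0139), with detection on 1 hSRY-ON array. Pola2, the accessory subunit of polymerase alpha, changed by -0.52 (adjusted p = 0.0159). The groups of these 3 genes did not overlap. Pold2, the second subunit of polymerase delta, changed by -0.70 and lay just outside the threshold (adjusted p = 0.0505), with groups that did not overlap. The primase subunit Prim2 was at 8.99, 8.92 and 9.11 against 8.57, 8.71 and 9.00, a change of -0.25 with overlapping groups (adjusted p = 0.246). Pola1, Pole2 and the other primase subunit Prim1 were not detected on any array.

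Of the sliding clamp and its loader, the loader subunits Rfc3, Rfc4 and Rfc5 were called lower and the other members were not. Rfc5 was at 9.09, 8.75 and 9.06 in hSRY-OFF and at 8.01, 8.19 and 8.48 in hSRY-ON, a change of -0.74 (SE 0.17, adjusted p = 0.0185). Rfc3 changed by -0.64 (adjusted p = 0.0445) and Rfc4, detected on 2 hSRY-ON arrays, by -1.38 (adjusted p = 0.0437). Leaving out hSRY-OFF replicate 1 or 3 or hSRY-ON replicate 2 ended the call of Rfc5, with an adjusted p of 0.0784, 0.0665 and 0.0545. For Rfc3 and Rfc4, both nearer the threshold than Rfc5, such values are not given here, so their calls should not be read as firmer. Rfc1, the large loader subunit, was at 10.50, 10.40 and 10.53 against 10.27, 10.37 and 10.54, a change of -0.08 with overlapping groups (adjusted p = 0.643), and Rfc2 changed by -0.16 (adjusted p = 0.337). Pcna, the clamp itself and a common marker of proliferation, was read by a single dim probe at 5.92, 5.70 and 6.22 against 5.68, 5.40 and 5.53. Its groups did not overlap, its change was -0.41, and it was not called (adjusted p = 0.104).

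Genes of the single-strand DNA binding complex RPA were not called by limma on any of 3 tested probes, of which 1 had an unadjusted p under 0.05. Rpa3 was at 11.27, 11.14 and 11.35 in hSRY-OFF and at 11.30, 11.29 and 11.28 in hSRY-ON, a change of 0.04 (SE 0.11, adjusted p = 0.836). Rpa2 was at 8.85, 8.65 and 8.65 against 8.06, 8.37 and 8.45, with groups that did not overlap and a change of -0.43 (adjusted p = 0.0677). Rpa1 changed by -0.37 with overlapping groups (adjusted p = 0.188). RPA also serves DNA repair outside S phase.

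In the joining of lagging strand fragments, the ligase gene Lig1 was called on 1 of its 2 tested probes. That probe was at 8.73, 8.69 and 8.97 in hSRY-OFF and at 8.13, 7.62 and 8.10 in hSRY-ON, a change of -0.85 (SE 0.17, adjusted p = 0.0138), and the other changed by -0.82 (adjusted p = 0.0576). The Lig1 call was lost without hSRY-OFF replicate 3 (adjusted p = 0.0527). Fen1, the flap nuclease, was at 11.01, 10.80 and 10.80 against 9.82, 10.29 and 10.89. Its hSRY-ON replicate 3 lay within the hSRY-OFF range and its change of -0.54 was not called (adjusted p = 0.163). Without that array Fen1 changed by -0.82 and was called (adjusted p = 0.0205).

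Genes that make deoxynucleotides included some of the larger falls, with 6 of 9 tested probes called lower and a median change of -1.16. Rrm2, the subunit of ribonucleotide reductase whose level follows S phase, was at 9.04, 8.82 and 8.96 in hSRY-OFF and at 7.07, 7.24 and 8.35 in hSRY-ON, a change of -1.39 (SE 0.32, adjusted p = 0.0209). Its other probe was at 7.65, 7.49 and 7.45 against 6.02, 6.07 and 6.68, a change of -1.27 (adjusted p = 0.00539) that was -0.58 without background correction. Rrm1, the large subunit of the same enzyme, was at 10.46, 10.04 and 10.23 against 9.49, 9.71 and 10.29, with overlapping groups and a change of -0.41 that was not called (adjusted p = 0.211). The call of the first Rrm2 probe was lost without any 1 hSRY-OFF array or hSRY-ON replicate 2, with adjusted p of 0.0624 to 0.0765, while Rrm1 was called without hSRY-ON replicate 3, with a change of -0.64 (adjusted p = 0.036).

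Tyms, the enzyme that makes thymidylate, was at 10.71, 10.37 and 10.25 in hSRY-OFF and at 9.11, 8.26 and 9.61 in hSRY-ON, a change of -1.45 (SE 0.33, adjusted p = 0.0192). All 3 tested Tyms probes were called lower, one by -1.48 and one, undetected in hSRY-ON, by at least 1.44-fold. The call of the brightest probe was lost with hSRY-OFF replicate 1 or 2 left out (adjusted p = 0.0752 and 0.0624). Tk1, the salvage enzyme for thymidine, was at 10.73, 10.19 and 10.52 against 8.49, 9.24 and 10.22. The hSRY-ON values of Tk1 spread over more than the change itself, -1.16, and it was not called (adjusted p = 0.0742). Without hSRY-ON replicate 3 its change was -1.62 and it was called (adjusted p = 0.00881). The second Tk1 probe was at 7.12, 6.78 and 7.40 against 6.82, 6.57 and 7.50 and was not called (change -0.14, adjusted p = 0.724). Dut, which removes dUTP, changed by -0.89 (adjusted p = 0.0237).

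**Figure D4:**
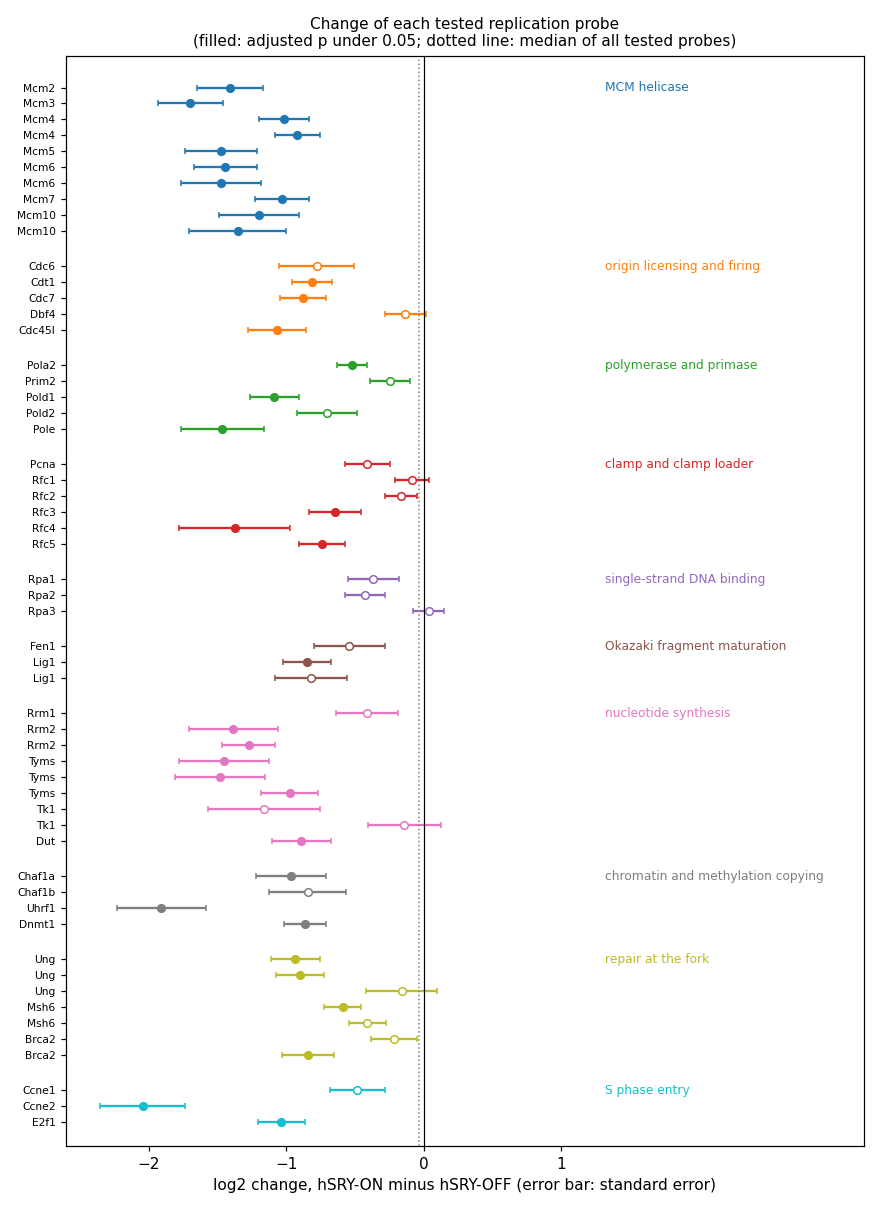
Log2 change, hSRY-ON minus hSRY-OFF (horizontal axis), of each of the 55 tested probes, with its standard error, ordered and coloured by role, filled where called at an adjusted p under 0.05. All 10 helicase probes are filled and lie between -1.70 and -0.92, while none of the 3 RPA probes is filled.

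Genes that copy chromatin and DNA methylation onto new strands were called on 3 of 4 tested probes. Uhrf1, which recognizes hemimethylated DNA behind the fork, was at 9.42, 9.27 and 9.47 in hSRY-OFF and at 7.57, 6.74 and 8.13 in hSRY-ON, a level 3.76-fold lower (log2 change -1.91, SE 0.32, adjusted p = 0.00752). Without background correction the change of Uhrf1 was -1.32. Dnmt1, the methyltransferase that Uhrf1 recruits, changed by -0.86 (adjusted p = 0.00863). Both genes held an E2F form, and the groups of neither overlapped. Of the chromatin assembly factor CAF-1, Chaf1a changed by -0.97 (adjusted p = 0.0322). Its partner Chaf1b was at 9.81, 9.55 and 9.73 against 8.42, 8.62 and 9.51, a change of -0.84 that was not called (adjusted p = 0.0618). Without hSRY-ON replicate 3 Chaf1b changed by -1.18 and was called (adjusted p = 0.00342). Slbp, which binds histone mRNA, was not detected on any array.

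Of the repair genes that act at the fork, Ung, Msh6 and Brca2 each had probes on both sides of the threshold. For Ung, which cuts uracil out of DNA, a probe at 6.46, 6.23 and 6.52 in hSRY-OFF and 5.19, 5.60 and 5.73 in hSRY-ON changed by -0.90 (SE 0.17, adjusted p = 0.0114), the brightest probe changed by -0.93 (adjusted p = 0.0114), and the remaining one was not called at 6.14, 5.64 and 5.65 against 5.29, 5.50 and 6.16 (change -0.16, adjusted p = 0.669). The probe at -0.90 was not called without hSRY-OFF replicate 1 (adjusted p = 0.0509). Without background correction it changed by -0.28. Msh6, of mismatch repair, changed by -0.59 (adjusted p = 0.0188) and -0.41 (adjusted p = 0.0586). Brca2, of homologous recombination, changed by -0.22 on its brightest probe (adjusted p = 0.368) and by -0.84 on the other (adjusted p = 0.0184). Brca1 was not detected on any array. Which transcripts of these genes each probe reads is not given in the files.

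Among regulators of S phase entry, the cyclin E gene Ccne2 was called lower. It was at 8.08, 7.54 and 7.63 in hSRY-OFF and at 6.09, 4.99 and 6.03 in hSRY-ON, a level 4.13-fold lower (log2 change -2.04, SE 0.31, adjusted p = 0.00541), with detection on 2 hSRY-ON arrays. The size of this fall depended on the background correction, with a change of -1.51 at an offset of 50 and of -0.89 without correction, both called. Ccne1, the other cyclin E gene, was at 6.43, 6.37 and 6.20 against 5.43, 5.97 and 6.15, with groups that did not overlap and a change of -0.48 that was not called (adjusted p = 0.113). E2f1, the activating factor of the E2F motif, was at 10.10, 9.80 and 9.88 against 8.63, 8.86 and 9.18, a change of -1.03 (SE 0.17, adjusted p = 0.0069). The calls of Ccne2 and E2f1 held without any 1 array.

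In all, 25 member probes were not tested, and 21 of these were detected on no array. The remaining 4, of Mcm4, Cdc6, Prim2 and Tyms, were detected on 1 or 2 hSRY-OFF arrays and no hSRY-ON array. The genes with a row but no tested probe were Mcm8, Gmnn, Pola1, Prim1, Pole2, Slbp and Brca1, each with a single probe.

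The hSRY-ON lungs differed among themselves in how far these genes were down. Measured against the hSRY-OFF mean of each probe, the median member probe stood at -1.07 on hSRY-ON replicate 1, at -1.06 on replicate 2 and at -0.59 on replicate 3, while it stood between -0.14 and 0.13 on the hSRY-OFF arrays. The median of all tested probes lay within 0.03 of 0 on each of the 6 arrays, as quantile normalization largely forces. Replicate 3 had the highest of the 3 hSRY-ON values in 45 of 55 member probes and replicate 1 the lowest in 37. Within hSRY-OFF, replicate 1 was the highest in 40 member probes and replicate 2 the lowest in 44. Over all tested probes each array was the lowest of its group in 30.5% to 38.7% and the highest in 31.7% to 35.5%. The median SD of a member probe was 0.351 in hSRY-ON and 0.161 in hSRY-OFF, against 0.223 and 0.130 over all tested probes, and the SD was larger in hSRY-ON for 48 of 55 member probes and for 73.6% of all tested probes. Without hSRY-ON replicate 3 the median change of the member probes was -1.06, and without hSRY-ON replicate 1 it was -0.75.

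**Figure D5:**
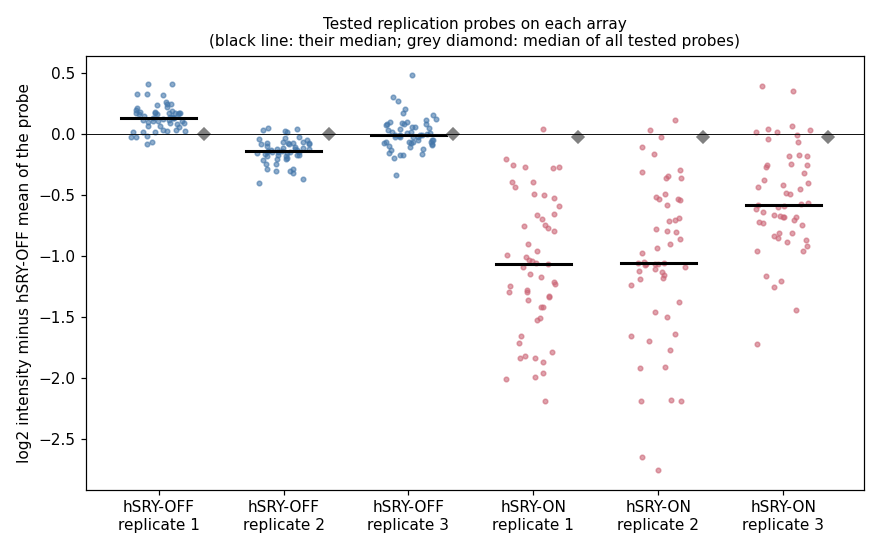
Log2 intensity of each tested member probe on each array minus the mean of that probe over the hSRY-OFF arrays (vertical axis), with the median of member probes as a black line and the median of all tested probes as a grey diamond. Member medians are -1.07 and -1.06 on hSRY-ON replicates 1 and 2 and -0.59 on replicate 3. The medians of all tested probes stay near 0, as quantile normalization largely forces.

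Genes that T cells and thymocytes share were also lower in hSRY-ON. Of 10 genes listed as thymocyte markers, 5 were tested and 4 were called lower in hSRY-ON, namely Cd3e (-1.75, adjusted p = 0.0112), Cd3g (-1.79, adjusted p = 0.0375), Cd8b1 (-2.24, adjusted p = 0.00648) and Lck (-1.25, adjusted p = 0.0335), all of which mature T cells express too. On each of these the highest hSRY-ON value was again that of replicate 3. The summed level of all 10 thymocyte probes on the linear scale, including 5 detected on no array, was 1295 to 1482 in hSRY-OFF and 299.8 to 888 in hSRY-ON. Of the genes particular to immature thymocytes, Ptcra was near background and not called (change -0.26, adjusted p = 0.451), and Rag1, Rag2 and Dntt were not detected on any array. Cd4 and Cd8a were not detected either. The part of T-lineage cells in the lower replication genes was not tested. Of 10 erythroid precursor genes, 8 were tested and limma called 0, with 1 at an unadjusted p under 0.05. The summed level of all 10 was 60317 to 68381 in hSRY-OFF and 61143 to 67998 in hSRY-ON.

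Among lung cell types, alveolar epithelial markers were called lower on 0 and higher on 3 of 9 tested probes, and airway markers lower on 0 and higher on 3 of 5. Endothelial markers were called lower on 3 of 5 tested probes and fibroblast markers on 1 of 5. Beside these and the other marker lists, 13.3% of all tested probes were called lower and 13.6% higher. The summed level of all 6 endothelial probes was 33042 to 35885 in hSRY-OFF and 22054 to 24541 in hSRY-ON. The surfactant gene Sftpc and the airway gene Scgb1a1, which define the labelled tissue, were detected on all 6 arrays and were not called. Cardiac muscle markers were called lower on 1 and higher on 1 of 6 tested probes. Of 8 liver markers, 5 were detected on no array. The 2 tested, Apoa1 and Ahsg, were called higher but were detected on no hSRY-OFF array. They passed the filter only through the hSRY-ON arrays and so had to differ. Their levels were at least 2.15-fold and 3.98-fold higher in hSRY-ON. The part of any of these cell types in the lower replication genes was not tested.

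Other genes of replication that the set does not hold were lower in part. Of 59 such genes, 52 were on the array and 38 were tested, on 55 probes. Of these probes 24 (43.6%) were called lower and 0 higher, with a median change of -0.59, where 13.3% of all tested probes were called lower and 13.6% higher. An unadjusted p under 0.05 with a higher value was found for 2 of these probes. The probe with the smallest p was that of Wdhd1, which ties polymerase alpha to the helicase, at 6.76, 6.41 and 6.58 against 5.73, 5.50 and 5.57 (change -0.98, adjusted p = 0.00402). Timeless, of the fork protection complex, was at 8.85, 8.51 and 8.74 against 7.43, 6.75 and 7.42 (change -1.50, adjusted p = 0.00409). Top1, the topoisomerase that relaxes DNA ahead of the fork, was called on the dimmer of its 2 tested probes, at 8.44, 8.55 and 8.33 against 7.72, 7.37 and 7.59 (change -0.88, adjusted p = 0.00587), and not on the brighter one (change -0.43, adjusted p = 0.0677). The groups did not overlap for any of these probes. The count was 6, 12 and 12 with hSRY-OFF replicate 1, 2 or 3 left out and 13 with hSRY-ON replicate 2 left out.

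Genes of nucleotide metabolism outside the set moved less as a list. Of 48 genes, 40 were tested on 62 probes, of which 17 (27.4%) were called lower and 1 higher, with a median change of -0.34. The shares over all tested probes were 13.3% lower and 13.6% higher. The probe with the smallest p was that of Dctd, which deaminates dCMP toward thymidylate, at 7.81, 7.50 and 7.90 against 6.14, 6.46 and 6.69 (change -1.31, adjusted p = 0.00411). Umps, which completes UMP synthesis, was at 8.19, 8.06 and 8.10 against 7.24, 6.88 and 7.25 (change -0.99, adjusted p = 0.0043). All 3 tested probes of Impdh1, of guanine nucleotide synthesis, were called lower. The one with the smallest p, also the dimmest, was at 6.05, 6.09 and 5.86 against 5.12, 5.36 and 5.03, and as it was undetected on the hSRY-ON arrays its fall is given as at least 1.51-fold (adjusted p = 0.00709). The brightest Impdh1 probe was detected on all 6 arrays and changed by -0.83 (adjusted p = 0.0117). Aprt, which salvages adenine, was the one called higher, at 12.20, 12.22 and 12.27 against 12.61, 12.90 and 12.52 (change 0.45, adjusted p = 0.0469). The count of 17 was 4, 6 and 10 with hSRY-OFF replicate 1, 2 or 3 left out and 9 with hSRY-ON replicate 2 left out.

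Of the E2F family and its partners outside the set, 10 genes were tested on 16 probes, with a median change of -0.43. Of these probes 4 (25%) were called lower and 0 higher, and 0 were higher at an unadjusted p under 0.05. As 13.3% of all tested probes were called lower and 13.6% higher, so small a list cannot be set apart from them by its count. Rbl1, the retinoblastoma-related p107, was at 7.66, 7.36 and 7.44 in hSRY-OFF and at 6.34, 6.52 and 6.17 in hSRY-ON (change -1.15, SE 0.14, adjusted p = 0.00296). Tfdp1, the partner with which E2F factors bind DNA, was at 11.27, 11.16 and 10.89 against 10.18, 10.15 and 10.47 (change -0.84, adjusted p = 0.00944). The repressor E2f6 was called on the dimmest of its 3 tested probes, at 8.64, 8.65 and 8.46 against 7.86, 8.16 and 8.07 (change -0.56, adjusted p = 0.0219), and not on the others (changes of -0.38 and -0.42). The count of 4 was 2 with hSRY-OFF replicate 1 or 2 left out and 7 with hSRY-ON replicate 1 left out. These lists and the replication set were compared by their counts only, and the differences between lists were not tested.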

How the data were processed

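The table that the authors deposited gives, for each probe and array, an intensity (mean bead signal, linear scale) and a detection p-value (against the negative control probes). The deposited intensities were neither background-corrected nor normalized. The software that summarised the beads is not given in the sources used here. The submitters' processing notes name limma, and the study's methods name TCC, which models counts. Since arrays give intensities, limma 3.58.1 was run here in R 4.3.3.

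The detection p-values served to estimate the background, and after an offset of 16 the arrays were quantile-normalized and then put on the log2 scale. Quantile normalization removes any overall shift, and the offset understates changes of dim probes. Probes detected (p under 0.05) on 3 or more of 6 arrays were tested with lmFit and eBayes, without covariates. For a probe undetected throughout a group, the detected group's mean was set against the mean over the other group's arrays of the probe's value or the array's lowest detected value, whichever was higher. The array medians of the raw intensity were 177.1 to 204.0, 13191 to 14134 probes were detected per array, and no arrays were identical. Labels name the groups, and the number of arrays limits precision. The procedure was tested on simulated data.

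Members and gene lists were chosen with earlier results of these data known. Values on every array are given for Mcm2 to Mcm7, Pcna, Rrm1, Rrm2, Tyms, Tk1 and E2f1, for the probe with the smallest and the largest p of each role, and for 3 probes a direction from each other list with the smallest p. Values of a member are those of its brightest tested probe unless the text says otherwise. Marker lists use 1 probe per gene. Motif searches used Python 3.11.15, and figures matplotlib 3.10.9. Sequences are RefSeq's (GRCm38.p6). Alternatives were other background corrections, normalizations, filters, variance models and thresholds, 1 probe per symbol, a replicate block and leaving out each array, with the normalization and filter kept.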

Additional observations from a re-analysis of the deposited data

How the results depend on the processing

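With 3 arrays a group, single arrays moved the counts of calls. Across the arrays left out 1 at a time, 17 to 41 replication probes, 6 to 27 probes of other replication genes, 4 to 21 of nucleotide metabolism and 2 to 7 of E2F factors were called lower. Of all 13841 tested probes, 705 to 2327 were called lower in the same fits. At an adjusted p under 0.01 the counts were 13, 4, 4 and 2, and 554 over all tested probes. Under the other alternatives 28 to 41 replication probes were called lower and 0 higher, and 1 probe per symbol gave 28 of 43. Over all tested probes these alternatives gave 1234 to 2089 lower calls, and 1 probe per symbol gave 1404. The median change of the replication set was -0.54 without background correction, where changes of dim probes shrink by construction. Nucleotide metabolism had 11 calls with 1 probe per symbol. The deviations of same-numbered arrays correlated at -0.107, 0.0957 and -0.0927, which shows no pairing by replicate number, but so few arrays cannot exclude one. With the replicate block 30 replication probes, 16 of other replication genes, 9 of nucleotide metabolism and 2 of E2F factors were called lower. Of 517 values of named genes under alternatives, 479 kept direction and call, 23 lost and 10 gained the call, and 5 changed sign, none of them called. These belong to the third Ung probe, at -0.418 to 0.0205 over the arrays left out (0.00535 without hSRY-OFF replicate 1), the second Tk1 probe, at -0.405 to 0.0555 (0.0107 without hSRY-OFF replicate 3), and Rpa3, at -0.0233 to 0.0849. The causes were not tested.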
